A study of Mus musculus with 10 samples.

Results

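Messages for 10 proteins that fold collagen and other secreted proteins in the endoplasmic reticulum (ER) were followed in mouse hearts and in cultured peritoneal macrophages. The genes (Serpinh1, Fkbp10, P4ha1, P4ha2, Hspa5, Hsp90b1, Calr, Pdia3, Pdia4 and Pdia6) were chosen by name, with earlier results of these data known. All 10 were found by Ensembl identifier among the 55357 identifiers of each table of read counts, and all 10 passed the filter on low counts, which left 13718 genes to test in hearts and 13861 in macrophages. The hearts came from Cd163-/- mice on a C57BL/6 background that had received saline (n = 3) or recombinant mouse interleukin-10 (IL-10, n = 3). CD163 is the macrophage receptor for haptoglobin-haemoglobin, and IL-10 is an anti-inflammatory cytokine. The series' design text describes surgery on males 8 weeks old that narrows the transverse aorta (TAC), and a daily dose of 50 µg/kg IL-10 under the skin on set days between day 0 and day 27. Whether each heart had the surgery is not in its own labels, and hearts after sham surgery or with intact Cd163 were not analysed here. The cells were thioglycolate-elicited peritoneal macrophages, selected by adherence and held for 48 h in 100 nM of the synthetic glucocorticoid dexamethasone, from wild-type (n = 2) and Cd163-/- (n = 2) mice. Both heart groups thus carried the Cd163 deletion, and both macrophage groups had the steroid. The labels do not say whether replicates are different animals or cultures. The spread behind each p-value is thus that between libraries, and it may be technical.

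Procollagen chains enter the ER as they are made. There the prolyl 4-hydroxylases, with catalytic subunits such as P4ha1 and P4ha2 held by the partner subunit P4hb, hydroxylate prolines so that the collagen helix is stable at body temperature. Serpinh1 (HSP47) binds the folded helix and escorts it towards the Golgi, and Fkbp10 (FKBP65) is a peptidyl-prolyl isomerase needed for normal collagen cross-linking. The other genes serve secreted proteins at large. Hspa5 (BiP) is the HSP70 of the ER and Hsp90b1 (GRP94) its HSP90, Calr (calreticulin) holds glycoproteins by their sugars together with Pdia3 (ERp57), and Pdia3, Pdia4 and Pdia6 form and exchange disulfide bonds. Many general ER chaperones are induced by the unfolded protein response, in which the transcription factors ATF6 and XBP1 act through the ER stress element (ERSE). Most collagen of the heart is made by fibroblasts.

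The promoters are shown because the ERSE was found before some of these genes and not before others. RefSeq (GRCm38.p6) gave a promoter for 9 of the 10, all but Fkbp10, and the 250 bases before the annotated start were searched on both strands. The ERSE, CCAAT and CCACG with 9 bases of any kind between them, was found before Hspa5, Hsp90b1, Calr and Pdia6, and not before Serpinh1, P4ha1, P4ha2, Pdia3 or Pdia4. It stood in 37 of all 32851 promoter windows of that length, or 0.113%. For Pdia4 alone, the bases after the RefSeq start were not found in the gene's GENCODE transcripts, so its window is less sure. The runs below are written 5′ to 3′ along each gene's strand, with the fixed bases of the ERSE in capitals. Serpinh1 is printed beside the 4 genes that hold it as the collagen-specific counterpart without it.
Hspa5, chr2:34771840-34772089, plus strand: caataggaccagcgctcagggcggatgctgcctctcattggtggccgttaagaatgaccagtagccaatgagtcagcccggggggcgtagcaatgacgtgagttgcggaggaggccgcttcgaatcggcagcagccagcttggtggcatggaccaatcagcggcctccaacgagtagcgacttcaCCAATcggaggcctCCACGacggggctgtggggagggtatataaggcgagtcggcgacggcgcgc
Hsp90b1, chr10:86705445-86705694, minus strand: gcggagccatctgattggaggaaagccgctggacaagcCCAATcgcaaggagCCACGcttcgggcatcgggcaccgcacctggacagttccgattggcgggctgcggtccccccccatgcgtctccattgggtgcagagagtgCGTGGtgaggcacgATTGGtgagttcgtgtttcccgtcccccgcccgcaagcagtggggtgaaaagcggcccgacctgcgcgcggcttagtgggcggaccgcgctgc
Calr, chr8:84846932-84847181, minus strand: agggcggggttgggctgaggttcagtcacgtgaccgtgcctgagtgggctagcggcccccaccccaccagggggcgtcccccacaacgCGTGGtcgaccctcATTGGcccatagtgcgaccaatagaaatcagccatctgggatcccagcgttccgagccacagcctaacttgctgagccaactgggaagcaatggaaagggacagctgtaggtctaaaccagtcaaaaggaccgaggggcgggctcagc
Pdia6, chr12:17266339-17266588, plus strand: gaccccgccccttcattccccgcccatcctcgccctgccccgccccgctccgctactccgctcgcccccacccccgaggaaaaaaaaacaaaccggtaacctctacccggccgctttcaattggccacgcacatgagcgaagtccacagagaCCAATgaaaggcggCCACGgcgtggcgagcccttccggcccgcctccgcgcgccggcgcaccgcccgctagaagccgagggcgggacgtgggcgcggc
Serpinh1, chr7:99353240-99353489, minus strand: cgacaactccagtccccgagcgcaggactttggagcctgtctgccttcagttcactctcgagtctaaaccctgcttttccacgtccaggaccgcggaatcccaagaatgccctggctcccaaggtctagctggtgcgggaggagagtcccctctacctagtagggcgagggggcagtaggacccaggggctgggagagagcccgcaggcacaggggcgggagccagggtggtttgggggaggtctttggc

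The copy before Hspa5 began 65 bases from the start and that before Pdia6 began 98 bases from it, both in the direction of the gene. In Calr the element lay on the opposite strand, 162 bases from the start. Hsp90b1 held 2 copies, 1 on each strand, at 212 and 107 bases. The second ER stress element (ATTGG and CCACG with 1 base between them, in 0.0304% of windows), the core of the unfolded protein response element (TGACGTGG, 0.563%) and the heat shock element (GAA, TTC and GAA, each 2 bases apart, 0.466%) were not found in any of the 9 windows. The core of the hypoxia element, ACGTG, which 16.6% of windows hold, was found before Serpinh1, P4ha1, P4ha2, Hspa5, Calr (where matches on opposite strands overlap) and Pdia6. In the other gene lists described below the ERSE stood before Canx, Dnajc3, Ero1b and Creld2 among 32 other ER chaperone genes with a promoter, before Syvn1 and Derl3 among 19 genes of ER-associated degradation, and in none of the 13 partners of collagen modification. A match is a match of letters and not a shown binding site, and no match says only that the letters are not in this window.

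Libraries held 13.5 to 14.9 M counts (M, mega) in hearts and 16.7 to 18.6 M in macrophages, of which the 10 genes took 0.183% to 0.262% and 0.408% to 0.503%. Levels are counts per M (CPM) on TMM-scaled library sizes, each table scaled alone, and group values are mean ± SD. The labelled sources were checked by markers: the cardiac myosin gene Myh6 was at 5452 to 7889 CPM in hearts, and the macrophage gene Adgre1 at 598.7 to 1219 CPM in macrophages. The macrophage cultures also held transcripts of fibroblasts and of mesothelium, the lining of the peritoneal cavity, which are given beside the results they accompany. Cd163 was at 20.9 and 13.0 CPM in wild-type and 0.448 and 0.778 CPM in Cd163-/- macrophages. In hearts it was at 2.39 to 3.65 CPM in all 6 libraries, so its loss is not shown there.

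In the hearts the 2 collagen-specific chaperones were lower with IL-10, and none of the general ER genes among the 10 passed the test. This is no clean divide, since the general isomerase Pdia4 (log2 fold change -0.52) stood near Serpinh1 (-0.54). The collagen hydroxylase subunit P4ha2 was at -0.060, and differences between the responses of genes were not tested. Serpinh1 fell 1.46-fold and Fkbp10 1.58-fold. These were the only members of the 10 called by edgeR's quasi-likelihood test at a Benjamini-Hochberg adjusted p under 0.05, both lower and none higher (0 higher also at an unadjusted p under 0.05, with DESeq2 and with limma-voom), which is 2 of 10 beside 6.7% of all tested genes called lower, 6.86% called higher and 13.6% called in either direction. The median log2 fold change over the 10 was -0.295, beside -0.00787 over all genes tested, and 8 of the 10 values were below 0. Both calls rested on few hearts, as given with each gene.

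Serpinh1 (chr7:99345376-99353239, minus strand, GRCm38) was at 464.2, 400.0 and 524.0 CPM in the 3 saline hearts and at 283.3, 311.3 and 358.0 CPM in the 3 IL-10 hearts. All IL-10 hearts lay below all saline hearts. The means were 462.7 ± 61.99 and 317.6 ± 37.7 CPM (SD, n = 3 each), a log2 fold change of -0.54 (SE 0.132, edgeR adjusted p = 0.012). The adjusted p rose to 0.0648 without saline heart 3, to 0.065 without IL-10 heart 1 and to 0.0645 without IL-10 heart 2. Fkbp10 (chr11:100415697-100424824, plus strand) was far less abundant, at 24.30, 18.74 and 30.18 CPM with saline and 11.81, 16.60 and 18.14 CPM with IL-10. Its groups did not overlap either, with the highest IL-10 heart just under the lowest saline heart. The means of Fkbp10 were 24.4 ± 5.722 and 15.51 ± 3.302 CPM (SD, n = 3 each), a log2 fold change of -0.66 (SE 0.179, edgeR adjusted p = 0.0228). Its adjusted p rose to 0.0576 without saline heart 1, 0.139 without saline heart 3, 0.0998 without IL-10 heart 1 and 0.0663 without IL-10 heart 2. Exons of Fkbp10 overlap Nt5c3b on the opposite strand, which had 240 to 287 counts in hearts, and the library kit did not mark strand, so reads in the shared part cannot be told apart.

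**Figure D1:**
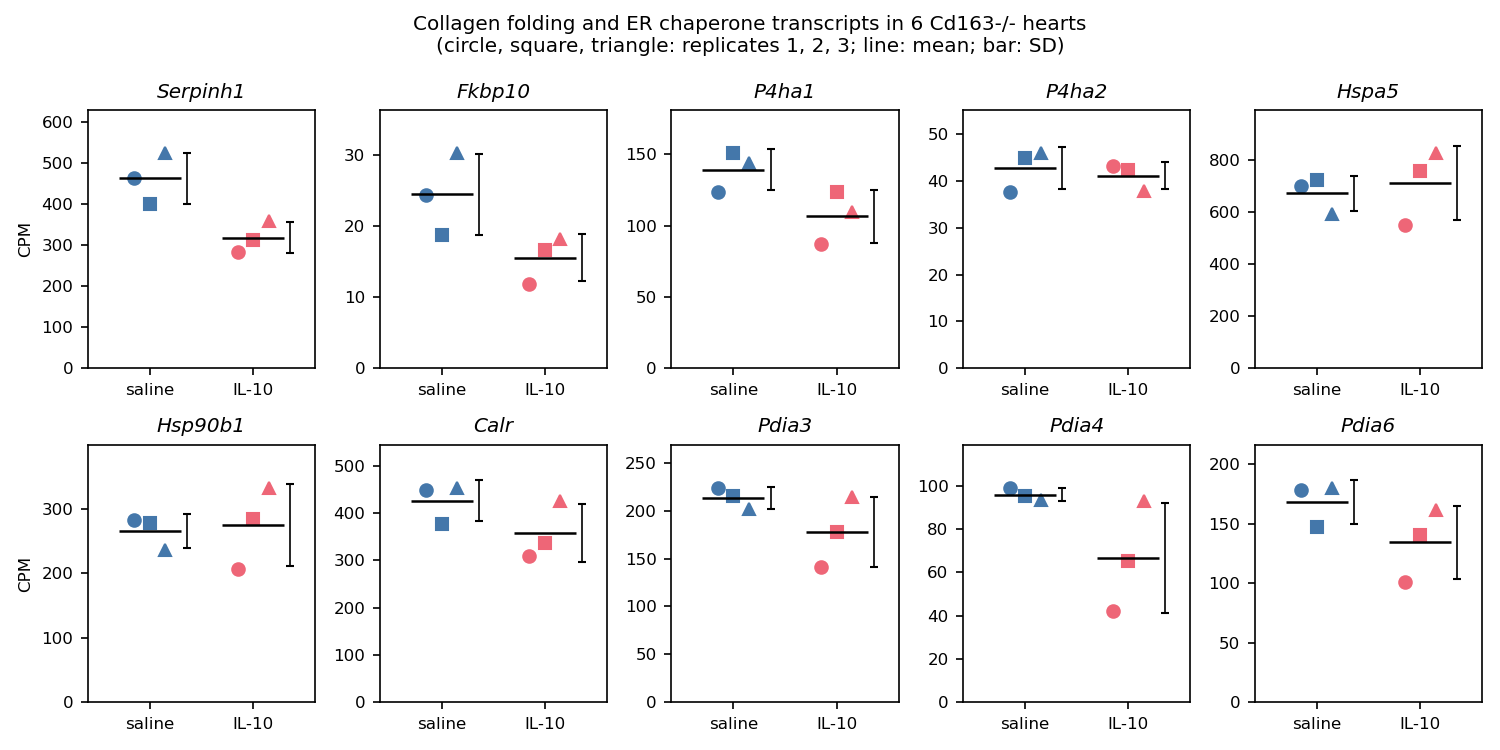
Each panel shows 1 of the 10 genes in the 6 hearts, with CPM on the vertical axis from 0, a point for each library, a line for the group mean and a bar for its SD (n = 3). Serpinh1 and Fkbp10 have all IL-10 hearts below all saline hearts, and Hspa5 and Hsp90b1 have overlapping groups.

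The catalytic subunits of prolyl 4-hydroxylase did not pass the test. P4ha1, the more abundant, was at 123.3, 150.8 and 143.8 CPM with saline and at 86.85, 123.9 and 109.3 CPM with IL-10, and the groups overlapped by a single heart (log2 fold change -0.38, SE 0.132, adjusted p = 0.0645). It did pass with upper-quartile scaling (edgeR adjusted p = 0.0372) and with library size alone (0.0285). P4ha2 was at 37.69, 44.91 and 45.94 CPM with saline and at 43.15, 42.38 and 37.82 CPM with IL-10, with all IL-10 hearts inside the saline range (log2 fold change -0.060, SE 0.116, adjusted p = 0.779). There were 3.27, 3.36 and 3.13 counts of P4ha1 for each count of P4ha2 in the saline hearts and 2.01, 2.92 and 2.89 in the IL-10 hearts, without overlap. P4hb, the partner subunit of both, which is also a disulfide isomerase in its own right, was at 377.0, 311.1 and 439.7 CPM with saline and at 233.1, 258.2 and 285.6 CPM with IL-10. The groups of P4hb did not overlap, and it fell (log2 fold change -0.54, SE 0.136, adjusted p = 0.0151). Leaving out saline heart 3, IL-10 heart 1 or IL-10 heart 2 in turn ended this call too, with an adjusted p of up to 0.0839.

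The ER HSP70 and HSP90 had overlapping groups. Hspa5 was at 700.3, 722.6 and 594.5 CPM with saline and at 551.8, 757.9 and 826.5 CPM with IL-10, so that both the lowest and the highest heart were in the IL-10 group (log2 fold change 0.083, SE 0.149, adjusted p = 0.763). Hsp90b1 had the same layout, at 282.0, 278.3 and 235.3 CPM with saline and at 207.4, 284.7 and 332.7 CPM with IL-10 (log2 fold change 0.052, SE 0.15, adjusted p = 0.856). Exons of Hsp90b1 overlap those of 1810014B01Rik, which had 78 to 174 counts in hearts, under a like limit on strand. Exon overlaps were also annotated for Pdia3 with Catsper2 (41 to 57 counts in hearts), Pdia6 with Atp6v1c2 (0 to 3) and Pdia4 with Mir704. The sign of Hsp90b1 turned with library size alone (-0.0135). The ratio of Hsp90b1 to Hspa5, adjusted for exon length, was between 0.404 and 0.422 in the saline hearts and between 0.394 and 0.422 in the IL-10 hearts.

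The lectin chaperone and the disulfide isomerases were lower on average with IL-10 and did not pass the test. Calr was at 449.1, 376.5 and 454.0 CPM with saline and at 310.3, 336.8 and 426.3 CPM with IL-10 (log2 fold change -0.25, SE 0.136, adjusted p = 0.236). Its partner lectin Canx (calnexin) had a log2 fold change of 0.048 (SE 0.117, adjusted p = 0.828). Pdia3, the isomerase that works with both lectins, was at 223.9, 214.9 and 201.4 CPM with saline and at 141.2, 178.0 and 214.1 CPM with IL-10 (log2 fold change -0.26, adjusted p = 0.219). The groups overlapped for Calr and Pdia3 through IL-10 heart 3. Pdia4 was at 99.10, 95.36 and 93.29 CPM with saline and spread from 42.18 over 65.22 to 92.80 CPM with IL-10. Its groups were apart by less than 1 CPM, and the SD was 2.948 CPM in the saline and 25.34 CPM in the IL-10 group (log2 fold change -0.52, SE 0.189, adjusted p = 0.0777). Pdia6 was at 178.1, 147.2 and 180.3 CPM with saline and at 101.3, 140.4 and 161.3 CPM with IL-10 (log2 fold change -0.33, SE 0.148, adjusted p = 0.158). Counting Serpinh1, Fkbp10 and Pdia4, the groups of 3 of the 10 genes did not overlap, all lower, beside 15.8% of all tested genes.

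One IL-10 library stood at the bottom of most of these genes and another near the saline hearts. IL-10 heart 1 was the lowest of all 6 hearts in 9 of the 10, and IL-10 heart 3 was the highest of the IL-10 hearts in 8. Without IL-10 heart 3, Pdia4 (log2 fold change -0.825, edgeR adjusted p = 0.0026), Pdia3 (-0.407, 0.0499) and Pdia6 (-0.467, 0.0472) passed the threshold beside Serpinh1 and Fkbp10. Without saline heart 3, IL-10 heart 1 or IL-10 heart 2, none of the 10 did. Summed over the 10 genes, the level was 2582, 2449 and 2503 CPM in the saline hearts and 1779, 2257 and 2577 CPM in the IL-10 hearts.

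Within a library, the collagen-specific and the general chaperones were also compared as ratios, which do not depend on scaling. Adjusted for exon length, there were 1.15, 0.958 and 1.53 Serpinh1 counts for each Hspa5 count in the saline hearts and 0.889, 0.711 and 0.750 in the IL-10 hearts, without overlap. For Pdia4 over Hspa5, adjusted likewise, the ratios were 0.249, 0.233 and 0.277 with saline and 0.135, 0.152 and 0.198 with IL-10, also without overlap. The collagen clients were lower still: Col1a1, Col1a2 and Col3a1 together gave 3.10, 2.74 and 3.66 counts per Serpinh1 count with saline and 2.23, 1.77 and 2.53 with IL-10. These ratios were chosen with the genes' values known and carry no test, and differences between the responses of 2 genes were not tested.

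**Figure D2:**
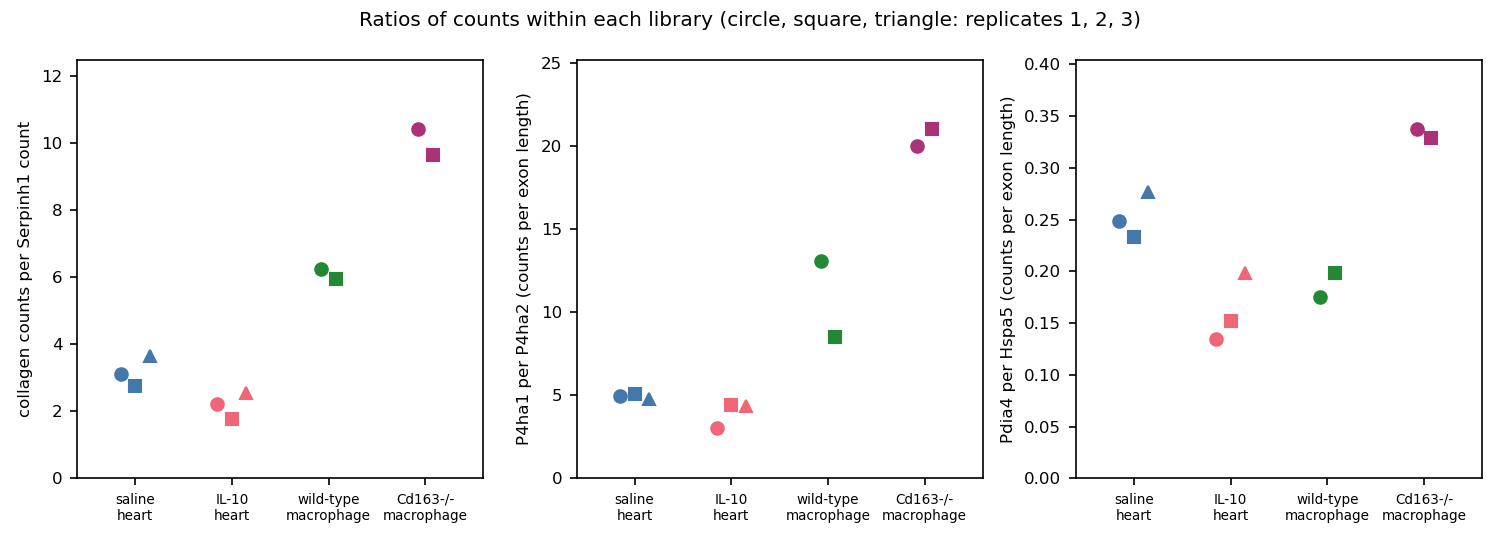
Each panel shows 1 ratio within a library, with the ratio on the vertical axis and a point for each of the 10 libraries by group. Collagen counts per Serpinh1 count lie between 1.77 and 2.53 in IL-10 hearts, under the saline hearts, and between 9.63 and 10.4 in Cd163-/- macrophages, above the wild-type ones.

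Per kilobase of exon (CPM per kb), the order of levels in saline hearts was led by Serpinh1 at 189 ± 25.4, Hspa5 at 159 ± 16.2 and Calr at 148 ± 15.1 (SD, n = 3), neighbours whose ranges overlapped. Pdia3 at 68.0 and Hsp90b1 at 65.8 followed, then Pdia6 at 45.0, Pdia4 at 40.0 and P4ha1 at 33.9, and Fkbp10 at 8.31 and P4ha2 at 6.87 stood lowest. Between Calr and Pdia3, Hsp90b1 and Pdia6, Pdia4 and P4ha1, and P4ha1 and Fkbp10 the ranges were apart, and the other neighbours overlapped. In IL-10 hearts Hspa5 (168), Serpinh1 (130) and Calr (124) came at the top and P4ha2 (6.59) and Fkbp10 (5.29) at the bottom, and each of these neighbours overlapped within its set. The order within close neighbours depended on the length used, since only 3 of the 10 genes kept their rank in saline hearts when the longest transcript replaced the union of exons.

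Several other genes of collagen modification were lower with IL-10. Among 17 tested partners of collagen modification and folding, 6 fell, 1 rose and 10 did not pass (median log2 fold change -0.26). Across all tested genes, 6.7% were called lower and 6.86% higher. Ppib (cyclophilin B) and Crtap, which act in a complex with the prolyl 3-hydroxylase P3h1, fell by 0.61 (adjusted p = 0.00311) and 0.62 (0.00639) on the log2 scale, both in each of the 6 fits that left out a library, while P3h1, the enzyme of that complex, did not pass (-0.37, adjusted p = 0.159). The isomerase Fkbp11 (-1.12, adjusted p = 0.0118), the lysyl hydroxylase Plod2 (-0.43, 0.0163), the isomerase Fkbp14 (-0.61, 0.0185) and P4hb made up the rest. The 1 partner that rose was Tmem38b, an ER cation channel (0.48, adjusted p = 0.0255), which lost its call without saline heart 1, without IL-10 heart 2 and with library size alone. Without saline heart 3, only 2 partners fell, and without IL-10 heart 1 or IL-10 heart 2 there were 3, beside 4 without saline heart 1, 8 without saline heart 2 and 7 without IL-10 heart 3.

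Of 22 tested genes of procollagen export, 2 fell by edgeR, beside 6.7% of all tested genes called lower. None rose, beside 6.86% called higher (0 higher also at an unadjusted edgeR p under 0.05, with DESeq2 and with limma-voom). The 2 that fell were receptors that return escaped ER proteins such as HSP47 and BiP from the Golgi. Kdelr2 was at 62.73, 55.11 and 66.70 CPM with saline and at 31.48, 37.53 and 42.18 CPM with IL-10 (log2 fold change -0.73, SE 0.125, adjusted p = 0.00123). Kdelr3 was at 24.30, 19.98 and 30.11 CPM with saline and at 10.98, 12.63 and 15.19 CPM with IL-10 (log2 fold change -0.94, SE 0.164, adjusted p = 0.00142). Neither pair of groups overlapped, and both calls held in each fit that left out a library. The count of falls was 5 with upper-quartile scaling and 4 with library size alone. The coat components Sec23b (-0.49, adjusted p = 0.0538) and Sec13 (-0.32, 0.0557) had the next smallest p-values.

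Of 39 other ER chaperones and oxidoreductases, 3 fell, 1 rose and 35 did not pass, with a median log2 fold change of -0.0533. The shares over all tested genes were 6.7% called lower and 6.86% called higher. The neurotrophic ER protein Cdnf rose (0.69, adjusted p = 0.00919), and the thioredoxin-domain proteins Txndc5 (-0.58, 0.013) and Txndc12 (-0.40, 0.0267) and the disulfide oxidase Ero1l (-0.41, 0.0392) fell. None of the 3 falls passed without saline heart 3, IL-10 heart 1 or IL-10 heart 2, Txndc12 was also lost without saline heart 1, and Ero1l passed in 0 of the 6 fits that left out a library. Of 21 sensors and factors of the unfolded protein response, 3 rose and 1 fell (median 0.111). Cebpb, a transcription factor of inflammation as well as of ER stress, was at 18.66, 16.77 and 16.59 CPM with saline and 38.94, 40.91 and 33.82 CPM with IL-10 (log2 fold change 1.13, SE 0.122, adjusted p = 3.61e-05). The stress factor Atf3 (0.91, adjusted p = 0.0218) and the ER stress sensor Atf6 (0.40, 0.0269) also rose, and the asparagine synthetase gene Asns fell (-0.85, 0.0135). Only Cebpb was called in every fit that left out a library, and the list had 1 rise without saline heart 1 or IL-10 heart 2. Xbp1 (0.017, adjusted p = 0.949), Atf4 (0.11, 0.553) and Ddit3 (CHOP; 0.27, 0.219) did not pass.

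Of 23 tested genes of ER-associated degradation, the route that disposes of misfolded proteins, 4 rose and none fell by edgeR (median 0.0293), with 1 lower at an unadjusted p under 0.05 and 0 lower with DESeq2 and limma-voom. Herpud1, a scaffold of that route, rose by 0.64 (SE 0.124, adjusted p = 0.00299), from 80.37, 104.2 and 75.22 CPM with saline to 132.9, 132.8 and 138.8 CPM with IL-10, and did so whichever library was left out. Svip (0.55, adjusted p = 0.0139), Erlec1 (0.41, 0.0286) and the ubiquitin ligase gene March6 (0.36, 0.0403) were the others. Svip kept its call in 4 and Erlec1 and March6 in 2 of the 6 fits that left out a library, and the list's rises were 1 without IL-10 heart 2 and 2 without saline heart 1 or saline heart 3. The count was also 2 with upper-quartile scaling or library size alone, where 1 fell. Of 20 heat shock genes outside the ER, most of them cytosolic and 2 (Hspd1, Hspe1) mitochondrial, 4 rose and 2 fell (median 0.0738). Beside these lists, 6.86% of all tested genes were called higher and 6.7% lower. Cryab, a small heat shock protein abundant in heart muscle, fell from 2417 ± 484.2 to 1248 ± 162.3 CPM (log2 fold change -0.95, adjusted p = 0.001). The inducible HSP70 genes Hspa1b (1.46, adjusted p = 0.00267) and Hspa1a (1.35, 0.00879), near-identical copies whose reads may be split between them, and the cochaperone Dnajb1 (0.59, 0.0137) rose. The count of rises was 2 without saline heart 3 and 1 without IL-10 heart 2. Dnajb1 lost its call in both of these fits and Hspa1a in the latter. The falls ranged from 1 to 2 as each library was left out.

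Most of the secreted clients fell, beside 6.7% of all tested genes called lower and 6.86% called higher. Of 23 tested genes for collagen chains and other matrix proteins, 20 fell and none rose by edgeR (median -0.816; 0 higher also at an unadjusted p under 0.05, with DESeq2 and with limma-voom), and with a library left out 15 to 20 fell, 15 of them without IL-10 heart 2. The smallest p-values were those of the matricellular protein gene Postn (-1.44, adjusted p = 2.56e-05), Col12a1 (-2.03, 1e-04) and the fibronectin gene Fn1 (-1.77, 0.000278). Of the fibrillar chains, Col1a1 fell by 1.34 (adjusted p = 0.00074), Col1a2 by 1.12 (0.00152) and Col3a1 by 1.02 (0.00243) on the log2 scale, beside 0.54 for Serpinh1. In a bulk heart, fewer cells of a type and less RNA per cell cannot be told apart. Of 10 fibroblast markers, 4 rose and 3 fell, and 2 of those 3 (Col1a1, Col1a2) are also in the matrix list. Their summed level was 2576 to 2758 CPM with saline and 2862 to 3406 CPM with IL-10. Among the defining markers, Pdgfra was at 80.66, 59.85 and 61.06 CPM with saline and at 65.10, 75.50 and 89.14 CPM with IL-10 (log2 fold change 0.19, adjusted p = 0.397). Tcf21 (-0.34, 0.172) and Lum (-0.086, 0.686) did not pass, and Dcn rose (0.47, 0.025). Dcn and Dpt kept their rises, and Mfap5 its fall, in 2 of the 6 fits that left out a library. Gsn (log2 fold change 0.806 to 1) and Scara5 (0.852 to 1.03) rose in every such fit, and Col1a1 and Col1a2 fell in every one. The count of markers that rose was 2 without saline heart 1, saline heart 3, IL-10 heart 2 or IL-10 heart 3. Over all 10 markers, 5 values were above and 5 below 0. Of 5 smooth muscle and pericyte markers, Acta2 (-1.02, adjusted p = 0.00049) and Pdgfrb (-0.49, 0.00919) fell, and the list's summed level was 672.6 to 819.1 CPM with saline and 693.8 to 851.6 CPM with IL-10. Markers of dividing cells fell in 6 of 6 and erythroid genes in 6 of 6, with summed levels of 42.43 to 55.99 against 6.61 to 8.366 CPM and 585.5 to 1193 against 300.9 to 549.7 CPM. The part of cell numbers in the lower Serpinh1 and Fkbp10 was not tested.

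**Figure D3:**
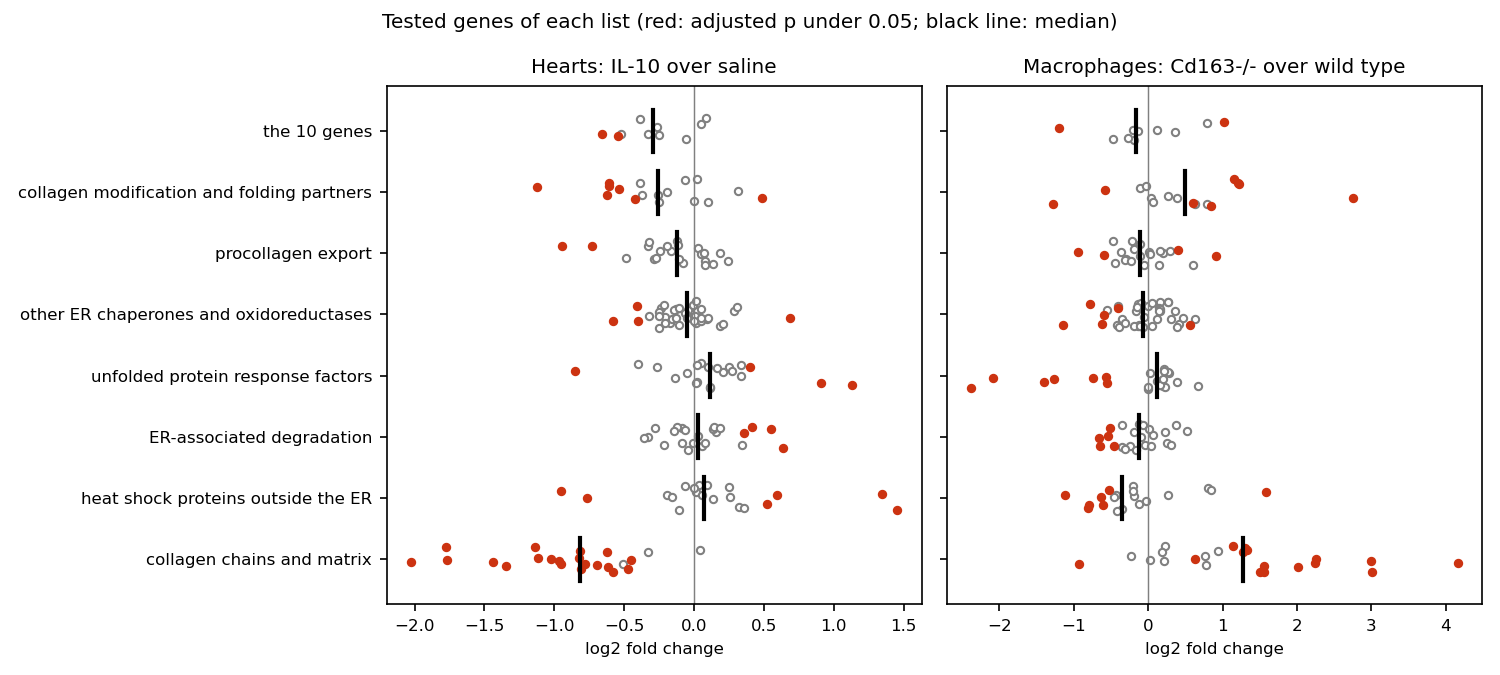
For each list, points show the log2 fold change of every tested gene (red where the adjusted p was under 0.05) and a black line the list's median, hearts (IL-10 over saline) and macrophages (Cd163-/- over wild type) in separate panels. Of the 8 lists drawn, the matrix list has the lowest median in hearts (-0.816) and the highest in macrophages (1.27).

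The genes whose pattern over the 6 hearts was most like that of Serpinh1, by Pearson's r of log2 CPM among 9914 genes, were Kdelr3, Col5a2 and Mfap5 (r = 0.997 each), S100a11 and Serpinf1 (0.996 each). For Hspa5 they were Atg3 (0.991), Stag2 (0.985), Hsp90b1 (0.983), Irak3 (0.981) and Ccdc90b (0.978). All 5 genes nearest to Serpinh1 were themselves lower with IL-10 (edgeR adjusted p from 0.00137 to 0.0174), and none of those nearest to Hspa5 was called (0.8 to 0.976). The 6 hearts share their group difference and their libraries, so r is a description. The neighbours' calls follow largely from how they were picked and are no separate evidence.

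In macrophages cultured with dexamethasone, the Cd163-/- libraries held more Fkbp10 and less P4ha2 than the wild-type ones. Fkbp10 was 2.03-fold higher and P4ha2 2.30-fold lower, and the other 8 genes did not pass edgeR's test, among them Serpinh1 at a 1.73-fold higher mean. That is 1 of 10 called higher beside 13.1% of all tested genes, and 1 of 10 lower beside 13.3%, or 26.4% in either direction. The groups did not overlap in 8 of 10 genes (3 higher and 5 lower), beside 69.4% of all tested genes (35.3% higher and 34.1% lower). The median log2 fold change was -0.164, beside 0.0124 over all genes. Upper-quartile scaling and library size alone moved the median of all genes to 0.125 and 0.188, and the calls over all genes from 1817 higher and 1846 lower to 2310 and 1403, and to 2665 and 1220. In hearts the same settings changed 941 higher and 919 lower to 716 and 1120, and to 549 and 993.

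Nt5c3b, whose exons overlap those of Fkbp10, had 232 to 272 counts in macrophages. Fkbp10 was at 21.21 and 34.38 CPM in wild-type and at 63.52 and 49.34 CPM in Cd163-/- macrophages. The groups were apart, with means of 27.8 ± 9.315 and 56.43 ± 10.03 CPM (SD, n = 2 each), a log2 fold change of 1.02 (SE 0.252, edgeR adjusted p = 0.0325). Without Cd163-/- library 1 the adjusted p was 0.182, and without Cd163-/- library 2 it was 0.0825. Serpinh1 was at 152.9 and 254.1 CPM in wild-type and 391.6 and 311.1 CPM in Cd163-/- libraries (203.5 ± 71.54 and 351.4 ± 56.97 CPM, log2 fold change 0.79, SE 0.263, adjusted p = 0.0743). Its groups were apart too, and it passed with the DESeq2 Wald test (adjusted p = 0.0223) and with library size alone (edgeR adjusted p = 0.0469). It did not pass with limma-voom (adjusted p = 0.0703) or with a replicate block (edgeR adjusted p = 0.107). Its log2 fold change was 0.466 without wild-type library 1 and 1.2 without wild-type library 2.

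Of the prolyl 4-hydroxylase subunits, P4ha2 was at 25.31 and 44.49 CPM in wild-type and at 16.54 and 13.72 CPM in Cd163-/- libraries. The groups were apart (34.9 ± 13.56 and 15.13 ± 1.992 CPM, SD, n = 2 each), and P4ha2 fell with a log2 fold change of -1.20 (SE 0.281, adjusted p = 0.028). Without Cd163-/- library 1 or 2 the adjusted p was 0.125 or 0.143. P4ha1 was at 217.9 and 249.8 CPM in wild-type and 217.8 and 190.5 CPM in Cd163-/- libraries (log2 fold change -0.20, adjusted p = 0.346). There were 8.61 and 5.61 counts of P4ha1 per count of P4ha2 in wild-type and 13.2 and 13.9 in Cd163-/- libraries. P4hb was at 824.0 and 987.2 CPM against 884.0 and 884.8 CPM, with the Cd163-/- libraries inside the wild-type range (log2 fold change -0.034, adjusted p = 0.898).

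**Figure D4:**
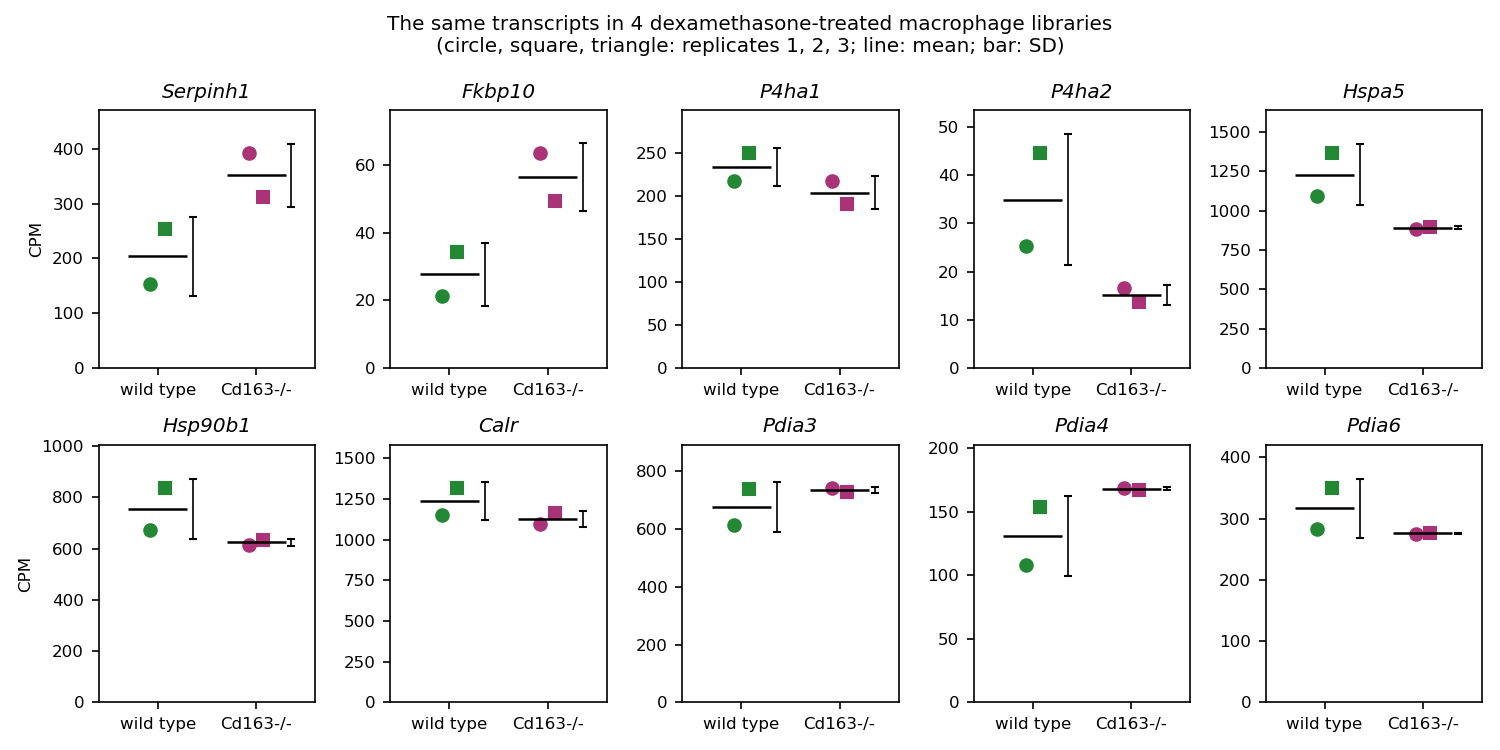
Each panel shows 1 of the 10 genes in the 4 macrophage libraries, with CPM on the vertical axis from 0, a point for each library, a line for the group mean and a bar for its SD (n = 2). Fkbp10 lies higher and P4ha2 lower in both Cd163-/- libraries, and wild-type library 1 is below wild-type library 2 in every panel.

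The general chaperones were abundant in these cells. Hspa5 was at 1094 and 1365 CPM in wild-type and at 884.0 and 897.1 CPM in Cd163-/- libraries (log2 fold change -0.47, SE 0.183, adjusted p = 0.111). It passed with DESeq2 (adjusted p = 0.0405) but not with limma-voom (adjusted p = 0.0897) or a replicate block (edgeR adjusted p = 0.217). Its log2 fold change was -0.618 without wild-type library 1 and -0.302 without wild-type library 2. Hsp90b1 was at 672.4 and 837.7 CPM against 614.6 and 632.9 CPM (log2 fold change -0.28, adjusted p = 0.276). Both had all Cd163-/- libraries below the wild-type ones. Calr was at 1152 and 1319 CPM against 1094 and 1163 CPM (log2 fold change -0.13, adjusted p = 0.609), with a sign that turned with library size alone (0.0443). Canx had a log2 fold change of -0.17 (adjusted p = 0.438).

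Among the disulfide isomerases, Pdia4 was at 108.5 and 153.5 CPM in wild-type and at 169.1 and 167.5 CPM in Cd163-/- libraries, apart and higher (log2 fold change 0.36, SE 0.183, adjusted p = 0.191). Its log2 fold change was 0.131 without wild-type library 1 and 0.629 without wild-type library 2. Pdia3 was at 612.8 and 737.2 CPM against 741.9 and 726.1 CPM (log2 fold change 0.12, adjusted p = 0.62). Pdia6 was at 282.8 and 350.8 CPM against 275.4 and 276.5 CPM (log2 fold change -0.20, adjusted p = 0.371). The length-adjusted ratio of Pdia4 to Hspa5 was 0.175 and 0.198 in wild-type and 0.337 and 0.329 in Cd163-/- libraries. Wild-type library 1 was below wild-type library 2 in all 10 genes, which widened the spread of that group.

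Per kilobase of exon, Calr led in wild-type macrophages at 429 CPM per kb, before Hspa5 (291), Pdia3 (215) and Hsp90b1 (187). Pdia6 (84.6), Serpinh1 (83.3), P4ha1 (56.8) and Pdia4 (54.6) followed, and Fkbp10 (9.47) and P4ha2 (5.59) were lowest. Pdia3 overlapped Hsp90b1, Pdia6 overlapped Serpinh1 and P4ha1 overlapped Pdia4, and the other neighbours were apart. In Cd163-/- macrophages the order was Calr (392), Pdia3 (234), Hspa5 (211), Hsp90b1 (155), Serpinh1 (144), Pdia6 (73.7), Pdia4 (70.2), P4ha1 (49.6), Fkbp10 (19.2) and P4ha2 (2.43), where only Hsp90b1 and Serpinh1 overlapped among neighbours. By mean, Serpinh1 headed the saline hearts and stood below Hsp90b1 in each macrophage group. In the Cd163-/- libraries these ranges overlapped, at 127 to 160 for Serpinh1 and 152 to 157 for Hsp90b1.

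The partners of collagen modification included both directions in the macrophages. Of 16 tested, 6 rose, 2 fell and 8 did not pass (median 0.494). Across all tested genes, 13.1% were called higher and 13.3% lower. P3h4 (1.21, adjusted p = 0.00514), the lysyl hydroxylases Plod1 (0.85, 0.00912) and Plod2 (1.22, 0.0288), P4ha3 (2.75, 0.0168), Fkbp7 (1.16, 0.0218) and Fkbp9 (0.60, 0.0307) rose. Tmem38b (-1.27, adjusted p = 0.00192) and the collagen galactosyltransferase Colgalt1 (-0.58, 0.0417) fell. Without Cd163-/- library 1 only 1 partner rose, and without Cd163-/- library 2 there were 3. Of 22 export genes, 2 rose (Creb3l2, 0.91, adjusted p = 0.00534, and Kdelr1, 0.40, 0.0411) and 2 fell (the cargo receptor Surf4, -0.95, 0.00872, and Sec23b, -0.60, 0.0289). Without Cd163-/- library 1 none of the 22 was called, without Cd163-/- library 2 1 rose and 0 fell, and without wild-type library 1 or 2 the counts were 1 and 4 or 4 and 1. Kdelr1 was called in 0 and Sec23b in 1 of these 4 fits.

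Of 39 other ER chaperones and oxidoreductases, 5 fell and 1 rose, beside 13.3% of all tested genes called lower and 13.1% called higher. The split depended on scaling, being 3 lower and 4 higher with upper-quartile scaling and 3 and 5 with library size alone. Ero1l, the oxidase that recharges the disulfide isomerases, was at 132.1 and 156.9 CPM in wild-type and 72.49 and 57.72 CPM in Cd163-/- libraries (log2 fold change -1.15, SE 0.162, adjusted p = 0.00665) and was called whichever library was left out. Hspa13 (-0.62, adjusted p = 0.0125), the glucosidase gene Mogs (-0.77, 0.0174) and Hyou1 (-0.59, 0.0379), an ER chaperone that helps BiP exchange nucleotides, also fell. Hspa13 and Mogs kept their calls in 2 and Hyou1 in 1 of the 4 fits that left out a library. The list's falls were 1 without Cd163-/- library 1 or 2, 9 without wild-type library 1 and 3 without wild-type library 2.

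Of 21 sensors and factors of the unfolded protein response, 7 fell and none rose by edgeR (median 0.115; 0 higher also at an unadjusted p under 0.05, with DESeq2 and with limma-voom), so that the median and the calls differ in sign. By p they were led by the stress-induced factor Nupr1 (-2.38, adjusted p = 0.000698), Cebpb (-1.40, 0.00259), Ppp1r15a, whose product reverses the arrest of translation (-2.09, 0.00527), and Atf4 (-0.74, 0.0177). Xbp1 (0.0023, adjusted p = 0.989), Atf6 (0.22, 0.265) and Ddit3 (0.15, 0.481) did not pass. With library size alone, 5 fell and 1 rose. Among all tested genes, the main fit called 13.3% lower and 13.1% higher. Of 23 genes of ER-associated degradation, 5 fell and none rose by edgeR (1 higher at an unadjusted p under 0.05, 0 with DESeq2 and limma-voom), led by Derl2 (-0.66, adjusted p = 0.0109), Herpud1 (-0.64, 0.011), Nploc4 (-0.54, 0.0185) and Ufd1 (-0.51, 0.0197), but 2 fell and 3 rose with library size alone. Of 19 heat shock genes of the list that covers proteins outside the ER, 6 fell and 1 rose, while with upper-quartile scaling or library size alone 1 fell and 4 rose. The mitochondrial chaperonin genes Hspd1 (-0.80, adjusted p = 0.012) and Hspe1 (-0.61, 0.0342) and the cochaperone Dnaja1 (-0.53, 0.0321) had the smallest p-values among the falls, and the small heat shock protein gene Hspb1 (1.59, 0.0289) rose. As each library was left out in turn, 2 to 7, 0 to 5 and 0 to 8 genes of these 3 lists fell.

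Collagen and matrix genes rose in the same libraries, beside 13.1% of all tested genes called higher and 13.3% called lower. Of 23 tested, 14 rose and 1 fell (Eln; median 1.27), and 7 to 16 rose as each library was left out, 7 of them without Cd163-/- library 1. Col1a1 (1.50, adjusted p = 0.0289), Col1a2 (1.14, 0.0226) and Col3a1 (2.25, 0.00822) were among them, with Col15a1 (3.00, 0.00118), Col6a2 (1.56, 0.00125), Col6a1 (1.32, 0.00192) and Col14a1 (3.00, 0.00232). Counts of Col1a1, Col1a2 and Col3a1 were 6.25 and 5.95 per Serpinh1 count in wild-type and 10.4 and 9.63 in Cd163-/- libraries, and 45.1 and 44.0 against 63.9 and 60.7 per Fkbp10 count. Markers of other cells moved with these genes. Of 7 tested fibroblast markers, 5 rose and 1, Pdgfra, fell (-1.32, adjusted p = 0.012), and their summed level was 1576 and 2276 CPM in wild-type and 3707 and 3208 CPM in Cd163-/- libraries, with Col1a1 and Col1a2 counted in both lists. Of 8 mesothelial markers, 5 rose, with sums of 149.7 and 95.71 CPM against 380.4 and 299.7 CPM. Without Cd163-/- library 1, 1 fibroblast and 0 mesothelial markers rose. Summed neutrophil markers, of which 2 of 2 tested fell, were at 165.7 and 328.6 CPM against 49.62 and 98.00 CPM, and smooth muscle and pericyte markers summed to 188.7 and 247.9 CPM against 720.0 and 423.1 CPM, with Acta2 (1.49, adjusted p = 0.0154) and Cnn1 (3.58, 0.00515) higher. Of 9 macrophage markers, Mrc1 (1.76, 0.00842) and C1qa (0.85, 0.0479) rose and Adgre1 (-0.80, 0.0273) fell, and the list's sum was 30090 and 24940 CPM against 23860 and 24820 CPM. The part of these cells in the values of Fkbp10 and Serpinh1 was not tested.

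**Figure D5:**
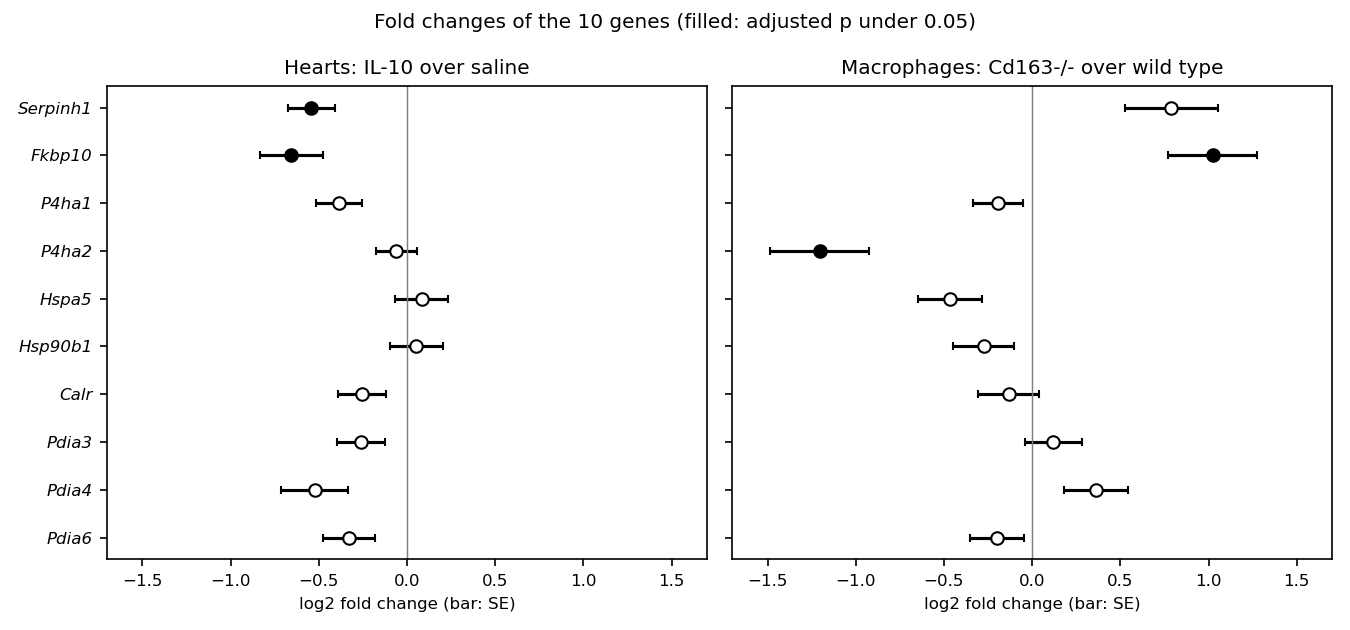
Points give the log2 fold change of each of the 10 genes with bars of 1 SE (filled where the adjusted p was under 0.05), IL-10 over saline in hearts (n = 3 each) and Cd163-/- over wild type in macrophages (n = 2 each), and a line marks 0. Fkbp10 is at -0.66 in hearts and 1.02 in macrophages, and Hspa5 at 0.083 and -0.47.

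Set side by side, the 2 comparisons share no library and were scaled and tested apart. Fkbp10 was called in both, lower with IL-10 in hearts (-0.66) and higher without Cd163 in macrophages (1.02), and Serpinh1 stood at -0.54 and 0.79, called in hearts alone. P4ha2 was called in macrophages alone (-1.20, against -0.060 in hearts). Whether the contrasts differ was not tested, since they differ in tissue, treatment and genotype at once. By level, Fkbp10 stood above 60.7% of the tested genes in hearts and 67.3% in macrophages, and Hspa5 above 99.2% and 99.4%.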

How the data were processed

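Poly(A) RNA of 6 hearts and 4 macrophage libraries was sequenced. The labels' protocol text names livers, which no sample is. Alignment used HISAT2 2.2.1 and counting used featureCounts, per the submitters' processing notes (its version is not given in the sources used here), and the authors deposited raw counts in 2 tables. The notes list GRCm39 and mm10, so the build behind the counts is not settled, and gene positions, names (52081 of 55357 identifiers) and exon lengths are those of GENCODE M21 on GRCm38, and promoters those of RefSeq. The kit, per the labels, was NEBNext Ultra, which does not mark strand.

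The tables were analysed apart in R 4.3.3. filterByExpr kept genes (minimum count 10, minimum total 15), and after TMM scaling groups were compared by edgeR 4.0.16's quasi-likelihood test, without a block, with Benjamini-Hochberg adjustment over all tested genes and a call at an adjusted p under 0.05. SE is the absolute log2 fold change over the square root of F. The procedure was tried on simulated data whose changes were larger than those of Serpinh1 and Fkbp10 in hearts. That trial does not cover changes of their size, and its result is not given here. A floor of 3 counts is 0.201 to 0.222 CPM in hearts and 0.161 to 0.179 CPM in macrophages. Mitochondrial genes held 33.7% to 39.4% and 2.43% to 3.12% of counts. The genes and lists were chosen with earlier results of these data known. Named are the 10 genes, up to 4 tested genes per list with the smallest p, fixed partners (P4hb, Canx), factors (Xbp1, Atf4, Atf6, Ddit3) and clients (Col1a1, Col1a2, Col3a1), and the 5 genes most like Serpinh1 and Hspa5 among those with a mean of at least 5 CPM. Plod2, Fkbp14 and P3h1 in hearts, Fkbp7, Fkbp9, Plod2 and Colgalt1 in macrophages, Eln, and the cell type markers were named after their values were seen, to complete small counts. Other settings tried were scaling by DESeq2 size factors, by the upper quartile or by library size alone, no filter or a filter of 1 CPM throughout a group, the Wald test of DESeq2 1.42.0, voom of limma 3.58.1, a replicate block, no mitochondrial genes, and each library left out (a lone macrophage library is then taken to vary as the other group does).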

Additional observations from a re-analysis of the deposited data

How the results depend on the processing

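The 2 falls among the 10 genes in hearts were 2 or 3 under every scaling, the stricter filter, DESeq2, limma-voom and without mitochondrial genes. They became 4 with no filter, where 1115 of all 24565 genes were called lower, and ranged from 0 to 5 as each library was left out. None of the 10 was called higher in any of these (edgeR; of the 10, the 2 means above 0 had unadjusted p of 0.586 and 0.734). In macrophages the 1 rise became 2 with library size alone, with no filter and with DESeq2, and ranged from 0 to 3 with a library left out. The 1 fall became 2 with no filter and with DESeq2, and ranged from 0 to 2. In saline hearts 3 of 10 genes kept their rank of level with the longest transcript as length. Over all genes, calls with a library left out ranged from 450 to 1082 higher and 447 to 1012 lower in hearts, and from 360 to 1838 higher and 374 to 1973 lower in macrophages. With no filter, 2680 of all 24809 genes were called higher and 2476 lower in macrophages. The cause of these changes was not tested.

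With the replicate number as a block, 3 of the 10 genes fell and 0 rose in hearts, where P4ha1 joined (adjusted p = 0.0407), and 0 rose and 1 fell in macrophages, where Fkbp10 had an adjusted p of 0.0554. Calls over all genes went to 772 higher and 751 lower in hearts, and to 1308 and 1348 in macrophages. Deviations of same-numbered libraries correlated at -0.179, 0.0421 and 0.0034 in hearts and at -0.113 in macrophages, and 0 of 6 hearts correlated best with its own number. At n = 2 per group the macrophage libraries give only a single independent value. So few libraries cannot settle whether those of the same number share a batch or a pairing. With crossed numbers as the block in macrophages, chosen after the data were seen, 2 of the 10 rose and 1 fell, and 2395 genes rose and 2200 fell over all.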
